A study of Cricetiscus sungorus with 216 samples.

Results

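Tshb, Cga, Nmu, Upp2 and Eya3 are 5 genes associated with the pars tuberalis under long days, and they were followed here through the mediobasal hypothalamus (MBH) and pituitary gland of Djungarian hamsters. They were chosen by name, with their MBH levels in long photoperiod (LP) and short photoperiod (SP) already known from these same data, out of 20156 gene symbols in the MBH table. The difference between LP and SP in the MBH, and ratios that carry it, are therefore given as a description without a test. The comparisons among SP weeks, and all comparisons in the other tissues, do not use that LP against SP difference of the MBH. Earlier results of these data were known at the choice, so these tests may not be independent of it.

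The pars tuberalis is the thin layer of pituitary tissue that covers the stalk and the base of the MBH, and it carries the melatonin receptor through which night length is read. In long days its thyrotroph cells make thyrotropin (TSH), a dimer of the beta subunit encoded by Tshb and the common alpha subunit encoded by Cga, and this TSH acts on tanycytes, the cells lining the third ventricle. Tanycytes answer through the deiodinase enzymes encoded by Dio2 and Dio3, which set local thyroid hormone. Eya3 encodes a transcriptional co-activator that works with TEF on the Tshb promoter, Nmu encodes the neuropeptide neuromedin U, and Upp2 encodes a uridine phosphorylase.

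The study asked how gene expression in the neuroendocrine brain follows a circannual interval timer, in which hamsters kept in SP change to the winter state and later return to the summer state without any change in the light. Adult males from a colony aged 3 to 8 months were sampled in LP, with 16 h of light a day (6 hamsters), or after 4, 8, 12, 16, 20, 24, 28 or 32 weeks of SP, with 8 h of light (6 hamsters at each week). None of these groups carried a transgene or received a drug according to the labels and methods, and each library came from 1 hamster. Brain regions were punched from frozen tissue, so an MBH punch held hypothalamus together with whatever pars tuberalis stayed attached to it.

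Nanopore cDNA libraries were made from 4 tissues of the 54 hamsters: the MBH, the pituitary gland, the dorsomedial hypothalamus (DMH) and the paraventricular nucleus (PVN). The total of estimated counts ran from 5996 to 13208361 per MBH library (median 1422834), and its median was 2010140 in LP and 1287260 in SP. Pituitary libraries were far shallower, with 29219 to 523544 counts (median 81120). Values below are CPM, the count of a gene divided by the total of its library and scaled in the usual way, with the standard deviation (SD) over 6 hamsters unless another n is given.

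A limit of the counting touched every member except Nmu. The tables list isoforms, and the isoform lines of a gene often repeated one value: the 7 Tshb lines held the same value in 20 of the 34 MBH libraries with any Tshb count. Summed over isoforms, Tshb had 4145 MBH counts, while its highest single isoform had 596. Cga had 2 isoform lines, Nmu 1, Upp2 15 and Eya3 8. A summed count can therefore stand for fewer reads, and 7 Tshb counts in a library may be 1 read. Levels are not ranked between genes for this reason, and because no transcript lengths were used.

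The label of pars tuberalis rested on the members themselves. Mtnr1a, the melatonin receptor of this tissue, had 3 counts in 2 LP libraries of the MBH and 6 counts in 3 SP libraries. Pitx1, a pituitary transcription factor, had no count in LP. Lhx3, another pituitary transcription factor, was counted in 4 of 6 LP and 21 of 48 SP libraries. Because these are bulk samples, fewer cells of a type and less RNA per cell cannot be told apart.

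In the MBH, Tshb, the subunit specific to TSH, was far higher in LP than at any SP week. The 6 LP hamsters had 571, 104, 592, 404, 265.5 and 693 CPM, a mean of 438 ± 223. After 4 weeks in SP the lowest, median and highest values were 0.409, 12.0 and 40.4 CPM, and the mean was 14.1 ± 13.7, so that LP was 31.1 times as high. The library at 40.4 CPM held 21 counts in a total of 2779756, so its value rests partly on its TMM factor. No SP library reached the lowest LP library.

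Tshb was at its lowest from week 8 to week 20. It was counted in 2 of 6 libraries at week 8 (mean 1.86 ± 4.33 CPM), 2 at week 12 (0.530 ± 0.922), 3 at week 16 (2.07 ± 3.10) and 1 at week 20 (0.809 ± 1.98). The LP mean was 828 times the mean at week 12. From week 24 Tshb was again counted in most libraries, in 4 of 6 at week 24 (6.29 ± 7.75 CPM), 5 at week 28 and 5 at week 32.

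The late values stayed far under LP. At week 28 the lowest, median and highest Tshb values were 0, 15.2 and 28.1 CPM (mean 15.01 ± 11.7), and at week 32 they were 0, 9.86 and 25.4 CPM (9.52 ± 9.25). The LP mean was 29.2 times the week 28 mean and 46.04 times the week 32 mean. Over the 48 SP libraries Tshb averaged 6.27 ± 9.23 CPM, and the LP mean was 69.9 times as high. The fitted difference, a separate measure that sets LP against the mean of the SP weeks on the log2 scale, was 6.84 (SE 0.46). Tshb was the only one of 20156 symbols, 0.00496%, for which every LP library lay above every SP library, which repeats the contrast it was chosen on.

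Cga, the alpha subunit that TSH shares with the gonadotropins, was lower in SP by a smaller factor and was counted in 47 of 48 SP libraries. Its LP values had a minimum, median and maximum of 365, 867 and 1384 CPM (858 ± 445). The week means were 101.2 ± 115 CPM at week 4, 70.4 ± 50.9 at week 8, 88.7 ± 76.0 at week 12, 75.3 ± 53.6 at week 16, 73.9 ± 91.8 at week 20 and 54.95 ± 62.9 at week 24. They were 273 ± 293 CPM at week 28, where the lowest library had 38.2 and the highest 830, and 138 ± 109 at week 32. The LP mean was 7.84 times the mean of all SP libraries (109 ± 137 CPM, n = 48), and the fitted log2 difference was 3.14 (SE 0.52).

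For Cga, 47 of 48 SP libraries lay under the lowest LP library. The exception was replicate 2 of week 28, at 830 CPM. That library also held 533 CPM of Prl (prolactin) and 113.4 CPM of Gh (growth hormone), the highest of any SP library for both, and the part of this in its Cga value was not tested.

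**Figure D1:**
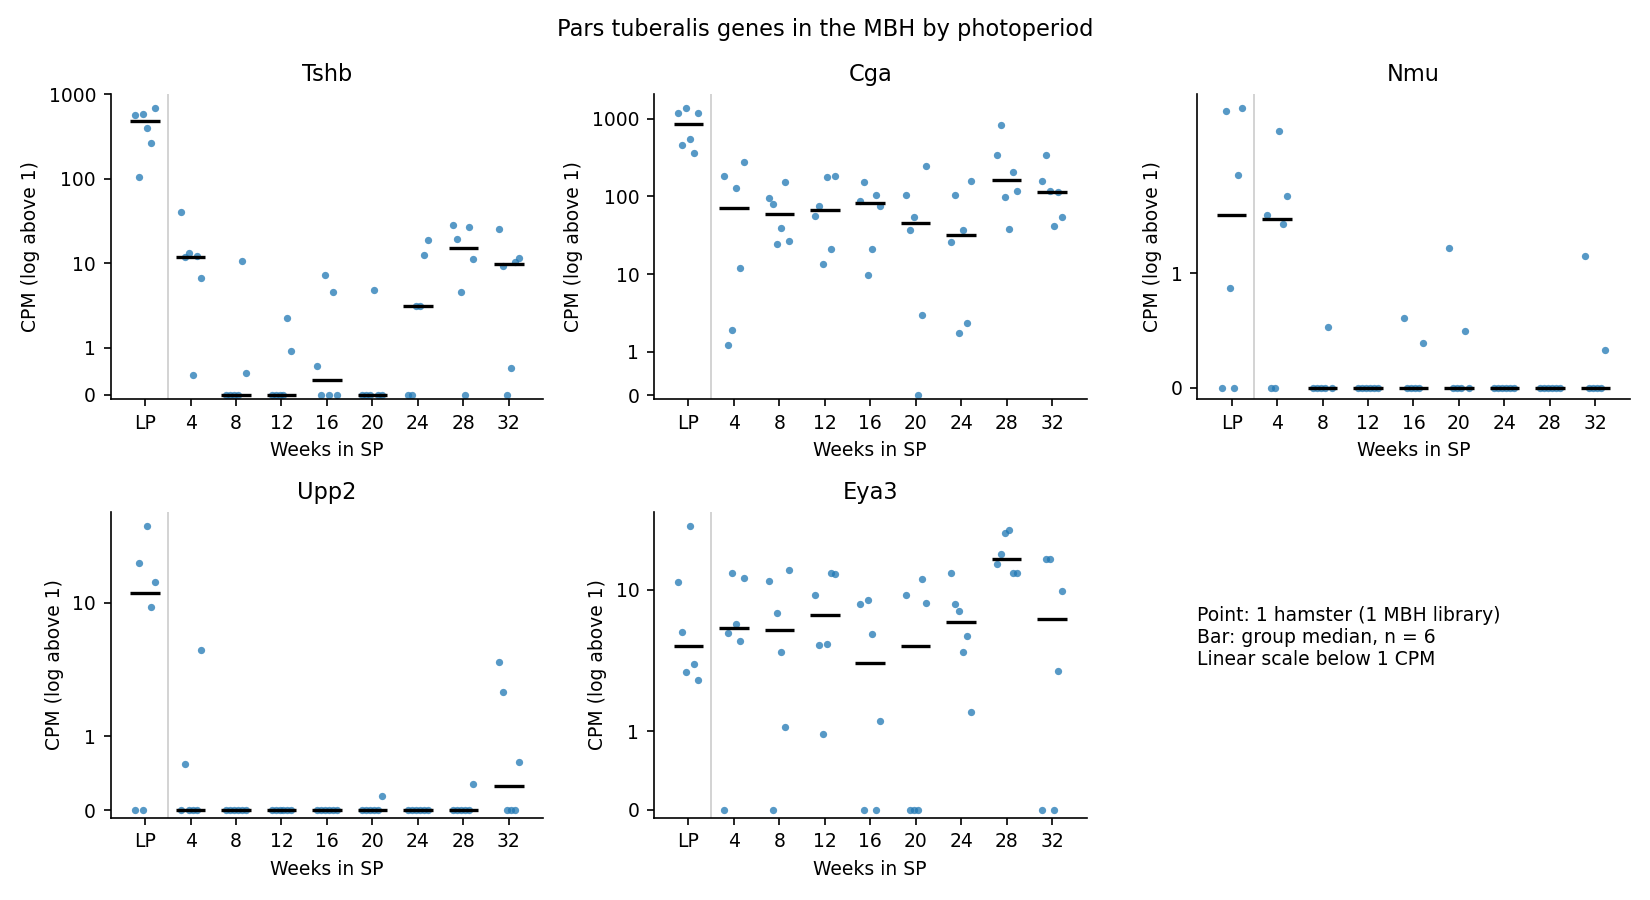
CPM of the 5 members in each MBH library (points) by group, LP and then weeks of SP, with bars at the median of 6 hamsters. The axis is logarithmic above 1 and linear below it. All SP values of Tshb lie under the lowest LP value of 104 CPM, Cga keeps a median above 30 CPM in every SP week, and Eya3 does not separate LP from SP.

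Nmu, the neuropeptide gene, was rare and followed another course. In LP it was counted in 4 of 6 libraries (0, 23, 1, 0, 7 and 11 counts, 2.72 ± 2.93 CPM), and at week 4 again in 4 of 6 (1, 0, 0, 12, 2 and 15 counts, 1.83 ± 1.82 CPM). From week 8 on, each week held at most 3 Nmu counts in at most 2 libraries. No count was found at weeks 12, 24 and 28, where 3 counts over the 6 libraries would be 0.308, 0.277 and 0.248 CPM. LP and week 4 thus overlapped for Nmu, while Tshb had already separated at week 4.

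Upp2, the uridine phosphorylase gene, was counted in 4 of 6 LP libraries, with 75, 28, 22 and 25 counts (mean over 6 libraries 13.6 ± 14.2 CPM). At week 4 it was counted in 2 libraries (0.845 ± 1.78 CPM), and 1 of them, replicate 6, held 4.45 CPM. It had no count at weeks 8, 12, 16 and 24, 1 count at week 20 and 2 counts at week 28. At week 32 it was counted in 3 libraries at 3.63, 2.14 and 0.654 CPM (1.07 ± 1.503). LP was 54.04 times the SP mean of 0.251 ± 0.869 CPM (n = 48), and 2 LP libraries with no Upp2 count overlapped SP. The fitted log2 difference was 6.27 with the isoforms summed and 3.41 with the highest isoform alone.

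Eya3, the co-activator of Tshb, did not separate LP from SP in these libraries, so its values did not bear out the label of long-day gene here. By the study's methods all hamsters were killed within a few hours of lights on, so other times of day were not sampled. It had 8.77 ± 10.1 CPM in LP and 7.67 ± 6.67 CPM in SP (n = 48), a difference of 0.20 (SE 0.59) on the log2 scale. The LP mean was carried by replicate 4 at 28.2 CPM, against an LP median of 4.01 CPM, and without that replicate number the fitted difference was -0.72. The highest group was week 28, where all 6 libraries lay between 13.2 and 26.5 CPM (18.6 ± 5.98), while the other SP weeks averaged 3.74 to 7.57 CPM.

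With edgeR's quasi-likelihood test and a Benjamini-Hochberg false discovery rate of 0.1, Tshb, Cga, Nmu and Upp2 were among the 160 symbols called higher in LP than in the mean of the SP weeks, 0.794% of those tested, and Eya3 was not. The same 4 members were among the 0.442% of symbols called over the 9 groups. Since the members were taken with this contrast in view, nothing is read from these counts.

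Within SP, the 8 weeks were compared with each other, a comparison that does not use the difference between LP and SP. Nmu passed the test (adjusted p = 0.0584), among 57 symbols called, 0.283% of the table, and its counts lay mostly at week 4. The Nmu call was lost when any 1 replicate number was left out (adjusted p 0.167 to 0.429). Tshb had an adjusted p of 0.128, Upp2 of 0.260, and Cga and Eya3 of 1. Tshb ranged from 3.24e-04 to 1 over the alternative settings, the lowest with the highest isoform of each gene in place of the sum, and it passed without replicate 4 (0.0930) and with edgeR's newer form (0.0728). Cga also moved with the setting: it passed in 1 of 15 alternatives, at an adjusted p of 1.66e-24, and did not pass in the other 14.

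The weeks in which hamsters return toward the summer state (24, 28 and 32, called recovery) were then set against the weeks of the full winter state (12, 16 and 20, called maintenance). Tshb was counted in 14 of 18 recovery libraries at 10.3 ± 9.82 CPM and in 6 of 18 maintenance libraries at 1.14 ± 2.17 CPM. The values overlapped, since both sets held libraries with no count. The fitted difference was 3.11 (SE 0.65) on the log2 scale, with an adjusted p of 0.109, just above the threshold of 0.1 and so not called, in a comparison that called 2 symbols, 0.00992%.

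For this difference in Tshb the outcome of the test moved with the setting. The adjusted p was 0.0306 with edgeR's newer quasi-likelihood form, 3.51e-04 with the highest isoform, 0.0696 without replicate 3 and 0.0164 without replicate 4, and 0.590 without replicate 6. A 2-sided permutation test of Tshb alone, added after the data were seen, gave a difference of 1.96 in mean log2 CPM (2.73 ± 1.76 against 0.77 ± 1.00, n = 18 each) and a raw p of 4.3e-04. The difference was positive under each alternative run.

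The other members did not pass the same test. Cga was 155 ± 196.1 CPM in recovery and 79.3 ± 71.2 in maintenance (log2 difference 0.68, SE 0.53, 95% interval -0.36 to 1.71, adjusted p = 1). With the highest isoform Cga passed (adjusted p 0.00309), while its permutation test over samples gave p = 0.247. Eya3 was 10.8 ± 8.09 and 5.34 ± 4.83 CPM (log2 difference 0.65, SE 0.46, 95% interval -0.26 to 1.56, adjusted p = 1, permutation p = 0.0519). Nmu and Upp2 were too rare in these weeks for a fitted difference, with counts in 2 and 4 of the 18 recovery libraries.

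Ratios within a library cancel its depth where both genes are counted, and were taken on summed counts with 0.5 added to each. Where 1 gene had no count, the ratio followed the count of the other gene and so the depth. Tshb was counted in 28 of 48 SP libraries. Among those without it, week 20 libraries with 1239 and 1 Cga counts had log2 ratios of Tshb to Cga of -11.28 and -1.58. The log2 ratio of Tshb to Cga, the subunits of 1 hormone, lay between -2.15 and -0.45 in the 6 LP libraries of the MBH, with a median of -0.92. In SP its median was -4.86, and 40 of 48 libraries lay below every LP library. Tshb therefore took a smaller share beside Cga in most SP hamsters, and the difference between LP and SP was unequal for the pair.

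Week 4 was the exception among the SP weeks. Its median Tshb to Cga ratio was -1.08, close to LP, but its 6 libraries ran from -7.73 to 2.96, with 3 below and 3 above every LP library. The Tshb and Cga counts behind them were 21 and 96, 19 and 2, 14 and 2, 1 and 318, 14 and 14, and 42 and 1743. The lowest median was -7.14, at week 12, and those of weeks 24, 28 and 32 were -2.68, -3.96 and -4.29.

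**Figure D2:**
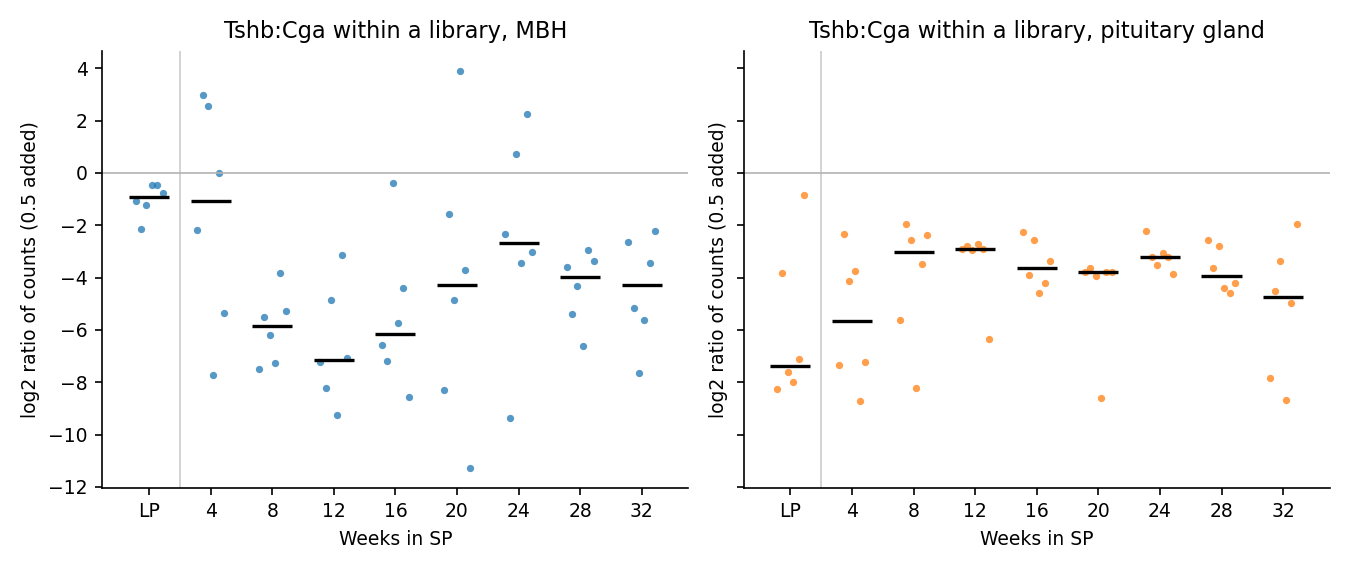
Log2 ratio of summed Tshb to summed Cga counts (0.5 added to each) in each library of the MBH and the pituitary gland, by group, with bars at the median. In the MBH the 6 LP libraries lie close together around -0.92 and most SP libraries lie lower, while in the pituitary gland the LP median of -7.37 is lower than that of every SP week.

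The ratios of Nmu and Eya3 to Tshb were higher in SP, which follows from the low Tshb counts there. The log2 ratio of Nmu to Tshb had a median of -7.76 in LP and -3.19 at week 4, where 4 of 6 libraries lay above every LP library. Nmu to Cga moved likewise, from -8.58 to -3.60, with 5 of 6 libraries above LP, of which 2 held no Nmu count and 2 Cga counts each. Eya3 to Tshb had a median of -5.97 in LP and 1.36 over the 44 SP libraries with a count of either gene, of which 40 lay above every LP library.

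Upp2 was low in the same weeks as the subunits. Its log2 ratio to Tshb had a median of -5.17 in LP and -3.91 in SP (29 libraries with a count of either), and its ratio to Cga a median of -5.79 and -7.22. The shift against Cga turned its direction with the highest isoform in place of the sum, so which of the 2 differed more depends on how isoforms are counted.

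Across the 48 SP libraries, 7 correlations of log2 CPM were computed, with permutation p-values adjusted over the 7. Tshb and Cga, the subunits of 1 hormone, had r = 0.08 (rho = 0.18, adjusted p 0.733 and 0.538). Tshb and Eya3, the gene and its co-activator, had r = 0.02 (rho = 0.08, adjusted p 0.888 and 0.674), and Cga and Eya3 r = 0.07 (rho = 0.14, adjusted p 0.733 and 0.580). No relation between members passed.

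The hormones of the pars distalis, the main endocrine lobe, were followed beside the members, because a punch can carry some of that lobe. Tshb with Prl had r = 0.20 (rho = 0.26), Cga with Prl r = 0.08 (rho = 0.06) and Cga with Gh r = 0.14 (rho = 0.11), with adjusted p of 0.263 to 0.733. Cga with Pomc, which encodes the precursor of ACTH and is also made by arcuate neurons, had r = 0.54 (permutation, adjusted p 8.4e-04) and rho = 0.31 (adjusted p 0.220). Without the 2 libraries farthest from the Cga median r was 0.35 (adjusted p 0.116), so those libraries decide whether it passes. Centred on each week, r was 0.54 (permutation, adjusted p 4.2e-04) and rho 0.41 (adjusted p 0.0290).

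The pars distalis markers moved in part with photoperiod. Lhb and Fshb, the beta subunits of the gonadotropins, were higher in LP (log2 difference 2.77, SE 0.68, adjusted p 0.0370, and 2.60, adjusted p 0.0177), 2 of 6 markers of the list in the table, whose median difference was 1.41. Lhb averaged 42.9 ± 80.6 CPM in LP and 7.53 ± 12.6 in SP, and without replicate 3 its difference was 0.67 (adjusted p 1) and that of Fshb 1.76 (adjusted p 0.280). Without replicate 2 the adjusted p was 0.106 for Lhb and 0.173 for Fshb. The summed level of Gh, Prl, Lhb and Fshb ran from 0 to 227 CPM in LP and from 0 to 655 in SP. Gh was at 0 in 4 of 6 LP and 30 of 48 SP libraries, and Prl in 4 and 38.

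Prl differed among the SP weeks of the MBH (adjusted p 5.76e-04). Its mean was 89.2 ± 218 CPM at week 28, with 533 CPM in replicate 2, and at most 5.02 CPM in any other SP week. Prl was not called between recovery and maintenance (adjusted p 1). Without the 2 libraries highest in the pars distalis hormones the Tshb difference between recovery and maintenance was 3.09 (adjusted p 0.124).

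In libraries with no Prl and no Gh count the TSH subunits were also higher in LP, given as a description of the contrast they were chosen on. Such libraries could still hold Lhb, 57.7 CPM in replicate 5 of week 28, so the part of the pars distalis in the difference was not tested. Tshb was 414 ± 152.8 CPM in 3 LP libraries and 6.21 ± 10.2 in 28 SP libraries, and Cga was 705 ± 438 and 86.7 ± 79.4 CPM. In the same libraries Nmu was 0.994 ± 1.72 and 0.412 ± 1.03 CPM, a smaller gap than over all libraries, Upp2 was 15.7 ± 19.6 and 0.0222 ± 0.117 CPM, and Eya3 was 14.2 ± 12.8 and 6.08 ± 6.06 CPM. Leaving out the 2 libraries highest in the 4 hormones gave LP minus SP differences of 6.74 for Tshb and 3.04 for Cga on the log2 scale.

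The targets of TSH were followed through a list of 7 genes. Of these, Gpr50, an orphan receptor of tanycytes, was higher in LP, at 29.9 ± 12.4 CPM against 8.67 ± 7.34 (log2 difference 1.78, SE 0.43, adjusted p 0.0351, lost without replicate 2 or 5 at 0.173 and 0.143). The list's median difference was -0.02, beside 0.00 over all symbols. Dio2, the deiodinase that activates thyroid hormone, was 1.79 ± 0.97 CPM in LP and 1.93 ± 1.59 in SP (log2 difference -0.02, SE 0.65, 95% interval -1.28 to 1.25, adjusted p 1).

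Dio3, the deiodinase that inactivates thyroid hormone, was counted in early SP and not in LP. It had no count in the 6 LP libraries. It averaged 0.73 ± 0.68 CPM at week 4, 1.72 ± 2.06 at week 8, 0.53 ± 0.75 at week 12 and 0.38 ± 0.67 at week 16, and it had no count from week 20 to week 32. Dio3 differed among the SP weeks (adjusted p 0.0615), a call lost without any 1 replicate number (0.178 to 0.416).

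Of the tanycyte markers 3 of 7 were higher in LP, Vim, Nes and Gpr50, with a list median of 0.99. Vim, which encodes the filament protein vimentin, was 154 ± 60.5 CPM in LP and 63.4 ± 28.8 in SP (log2 difference 1.28, SE 0.25, adjusted p 0.0038). Nes, which encodes nestin, was 3.28 ± 2.28 and 0.83 ± 1.34 CPM (2.07, SE 0.58, adjusted p 0.0951, lost without each of replicates 2 to 6 in turn). Whether these markers have a part in the members' difference was not tested.

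**Figure D3:**
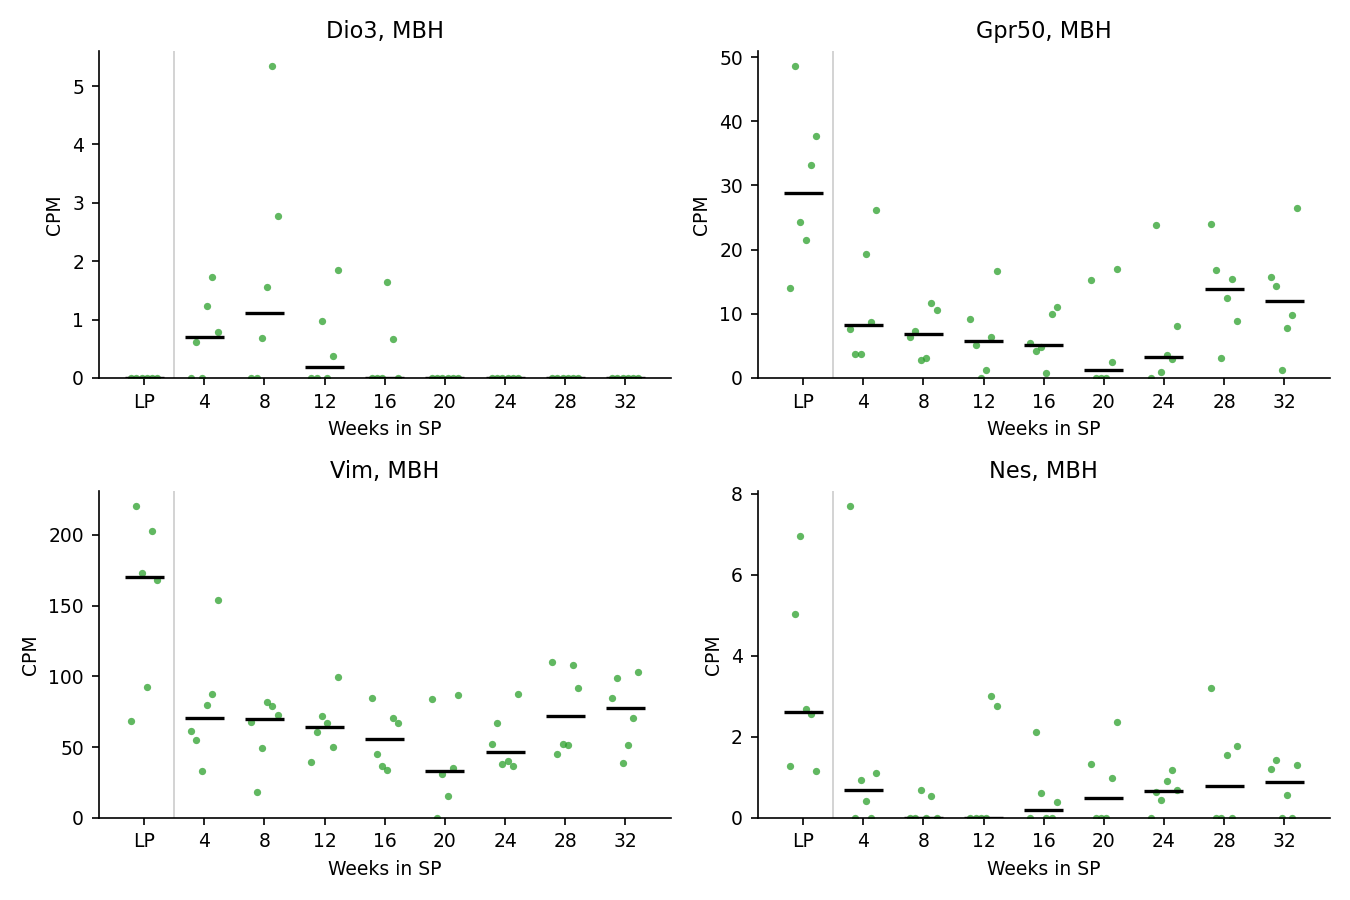
CPM, on linear axes, of Dio3, Gpr50, Vim and Nes in each MBH library by group, with bars at the median of 6 hamsters. Dio3 is at 0 in LP and from week 20 on, and the LP medians of Gpr50, Vim and Nes lie above those of every SP week.

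At the time of day sampled, genes that act upstream of Tshb or beside the other members did not pass. Of 12 genes of the photoperiod input and the partners of Eya3, among them Tef, Dbp, Cry1 and Per1, none was called between LP and SP, with a list median of 0.20. None of 7 thyrotroph and pituitary factors (median 0.10), none of 6 genes of uridine metabolism (0.31) and none of the 2 measured genes of the neuromedin U system (-0.52) was called. Markers of neurons (0 of 8 called, median 0.10), oligodendrocytes (0 of 3, 0.89) and blood (0 of 4, 0.30) were not called either.

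The symbols whose MBH pattern was most like that of a member were taken from 9221 symbols that passed a filter on low counts, by Pearson's r of log2 CPM over the 54 libraries, which include the LP against SP gap. For Tshb they included Pvalb (r = 0.59), Usp28 (0.54), Gpr50 (0.54) and Frmd6 (0.48). For Cga they were Dapl1 (0.73), Gpr50 (0.66) and Fam122b (0.65). For Eya3 they were Hccs (0.64), Gnl3 (0.60) and Smap1 (0.57). Within the 48 SP libraries Gpr50 had r = 0.35 with Tshb and 0.57 with Cga.

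In the pituitary gland, which is mostly pars distalis, no LP excess of the TSH subunits was detected in the same hamsters. Cga was 1812 ± 733 CPM in LP (1122 to 3207) and 1821 ± 648 in SP (n = 48), a log2 difference of 0.01 (SE 0.28, 95% interval -0.54 to 0.56, adjusted p 1). Tshb was counted in 3 of 6 LP libraries, at 100.7, 15.3 and 616 CPM (mean 122 ± 245), and in 40 of 48 SP libraries (154 ± 115). Its log2 difference was -0.33 (SE 0.74, 95% interval -1.77 to 1.11, adjusted p 1), and it was -2.42 (adjusted p 0.218) without replicate 6, which holds the library at 616 CPM. LP and SP libraries overlapped for every member, in a comparison that called 1.36% of 22482 symbols and no member.

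Week by week, pituitary Tshb ran from 84.1 ± 114 CPM at week 4 to 214.1 ± 122 at week 16. Week 24 had 206 ± 50.7 CPM, with a count in each of its 6 libraries. None of 40 exact permutation tests of a member at a week against LP had p under 0.05, and the smallest was p = 0.0931, for Cga at week 8 (1274 ± 328 CPM). The smallest p that 6 against 6 allows is 0.00216, and every adjusted p was 1. Recovery and maintenance differed by 0.05 for Tshb (SE 0.53, 95% interval -0.99 to 1.08) and 0.11 for Cga (SE 0.22, -0.32 to 0.53), both with adjusted p of 1, where 0.302% of symbols were called.

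**Figure D4:**
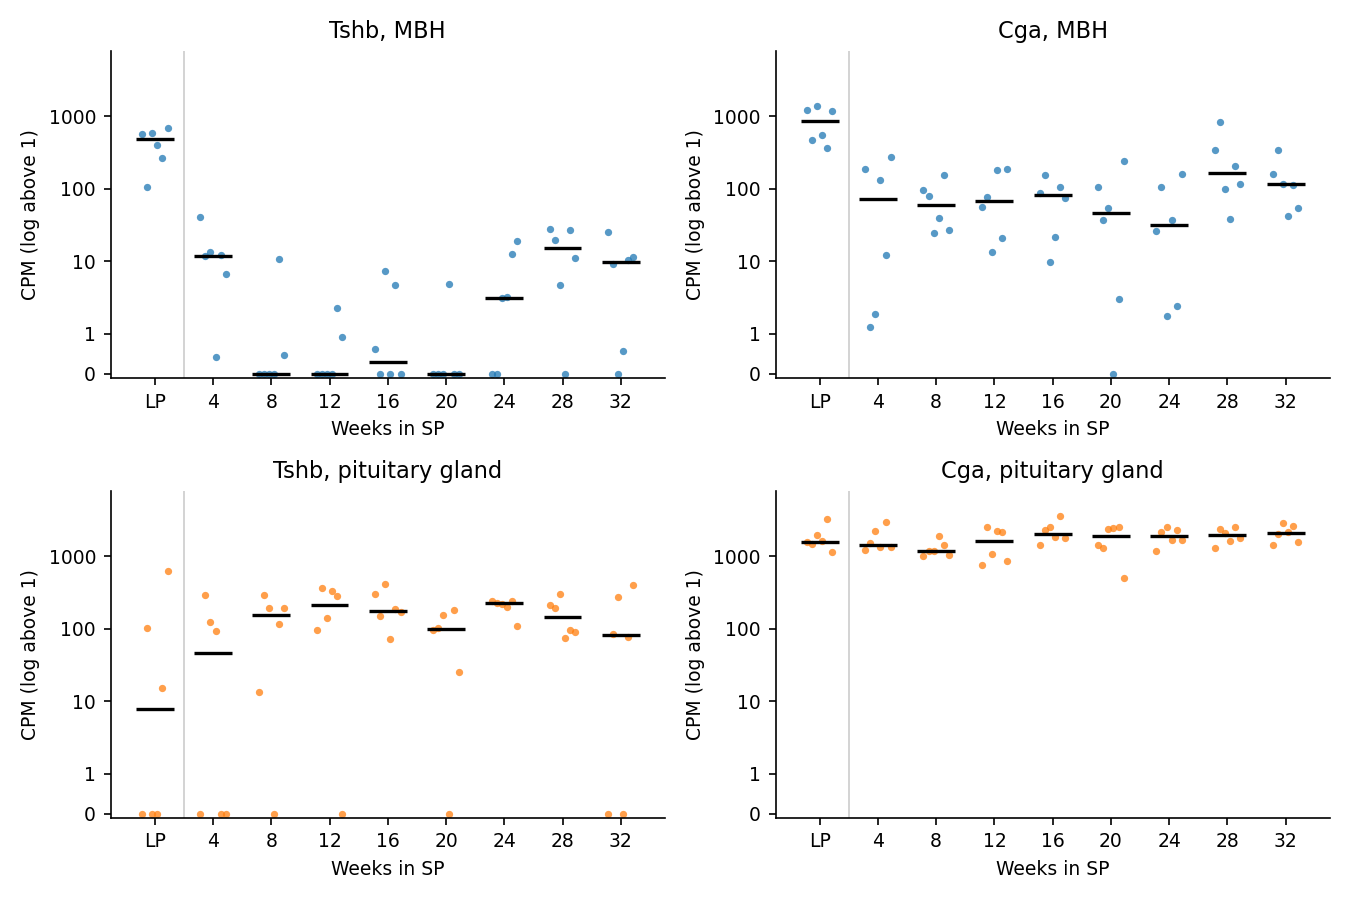
CPM of Tshb and Cga in each library of the MBH and the pituitary gland by group, with bars at the median of 6 hamsters, on an axis that is logarithmic above 1 and linear below it. The LP excess of the MBH is not seen in the pituitary gland, where Cga stays between 502 and 3531 CPM in all 54 libraries.

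The within-library ratio of Tshb to Cga ran the other way in the pituitary gland, as a description. Its log2 median was -7.37 in LP (-8.25 to -0.85) and -3.69 in SP, with weeks 8 to 28 between -3.92 and -2.90. The LP median rests on 3 libraries without a Tshb count, at a median pituitary depth in LP of 75850 counts. The MBH and pituitary tables were made and scaled separately and with different library kits according to the study's methods, so the difference between the tissues was not tested.

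The other members were near the limit of detection in the pituitary gland. Nmu had 2 counts in 2 libraries, and Upp2 had 34 counts in 11 libraries, none in LP. Eya3 had 46 counts in 11 libraries and was called over the 9 groups (adjusted p 0.0668), among 9.56% of symbols called. That call rested on libraries holding up to 14 counts, was lost without replicate 5 (0.1002) or replicate 6 (0.206), and had an adjusted p of 0.918 with the highest isoform. The share of 9.56% was itself unstable. It came from 2149 symbols called without a filter, against 32 with the highest isoform and 6 of 1606 with a filter on low counts.

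In the DMH, Tshb was counted in 15 of 54 libraries and was called over the 9 groups (adjusted p 0.0739, with 4.62% of symbols called). It averaged 0.669 ± 1.44 CPM in LP, 2.66 ± 4.29 at week 8 and 2.13 ± 2.52 at week 16, with no count at weeks 20, 28 and 32. Its highest DMH library had 10.3 CPM, and the call was lost without replicate 3 (0.193), 4 (0.154) or 6 (0.412). No member was called between LP and SP, where 3.91% of symbols were. Eya3 was counted in 20 DMH libraries, and Cga, Nmu and Upp2 had 1 count each.

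In the PVN, Tshb was 10.9 ± 11.9 CPM in LP and 14.3 ± 17.3 in SP (log2 difference -0.20, SE 0.84, 95% interval -1.85 to 1.45, adjusted p 1). Eya3 was 15.9 ± 14.3 and 10.9 ± 11.1 CPM (log2 difference 0.57, SE 0.60, adjusted p 1). No member was called, over the 9 groups (0.0158% of symbols) or between LP and SP (0.0211%). The PVN libraries were shallow, and their table held no Cga. The shallowest, with 159 counts, was replicate 1 of LP, and it enters the LP means of Tshb and Eya3 as 0. In none of the 3 tissues other than the MBH was Tshb called higher in LP.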

How the data were processed

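The authors made barcoded nanopore cDNA libraries, called bases with guppy, trimmed and filtered with Porechop and Filtlong, aligned hamster reads to a mouse reference with Minimap2 and counted with Salmon. They deposited estimated counts per isoform, not normalized, 1 table per tissue. Between 97.6% and 99.6% of values above 0 were whole within 1e-06. Labels name the PCR-cDNA kit for all tissues, and the study's methods a direct cDNA kit for the pituitary gland. No column was left unmapped (0).

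Here the expected counts were summed over the isoforms of a gene symbol and rounded. Levels are CPM of the summed gene counts over library totals adjusted by TMM factors. Comparisons used edgeR 4.0.16 in R 4.3.3 (quasi-likelihood F-test in its edgeR 3 form, TMM, no filter on low counts, 9 groups, FDR 0.1 over all symbols). Fitted differences are log2 with SE. Permutation tests and correlations used scipy 1.17.1, 2-sided, exact for 6 against 6 and otherwise with 100000 resamples, on log2 CPM with a prior count of 2 for the correlations. The script was tested on simulated data.

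The alternatives were an FDR of 0.05, DESeq2 1.42.0 and its size factors, a filter on low counts, edgeR's newer form, the replicate number as a block, the highest isoform, libraries under 10000 counts left out and each replicate left out. Added after seeing the data were the permutation test of recovery against maintenance and fits and correlations without the 2 libraries highest in Gh, Prl, Lhb and Fshb.

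The members and gene lists were chosen with earlier results of these data known. Named genes are the members, list genes that passed a test or stand beside a member, and the 5 (Tshb) or 3 symbols most alike in pattern, for members counted in at least 18 of 54 MBH libraries. Some genes that this rule names are not reported here. Floors are 3 counts over a group and, like the CPM of rare genes, cover counting error only. PCR copies were not told apart.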

Additional observations from a re-analysis of the deposited data

Results flagged for a closer look

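Of 52 groups of 6 libraries (all members in the MBH, Tshb and Cga in the pituitary gland) in which the gene was counted in at least 2 libraries, 8 held a library farther from the others than Dixon's 95% critical value allows. That value is made for normally distributed values. Its rate of 1 in 20 does not apply to sparse counts with many zeros, so the 8 were not compared with chance. In the MBH the flagged libraries were Tshb in replicate 1 of week 4 (40.4 CPM) and replicate 5 of week 8 (10.7 CPM), Nmu in replicate 1 of week 20 (1.32 CPM) and replicate 1 of week 32 (1.21 CPM), Upp2 in replicate 6 of week 4 (4.45 CPM) and Eya3 in replicate 4 of LP (28.2 CPM). In the pituitary gland they were Tshb in replicate 6 of LP (616 CPM) and, as the lowest library of its group, in replicate 6 of week 24 (108 CPM). Most of the MBH cases are groups in which the other libraries had few or no counts of the gene. The Tshb case of week 4 also rests on the TMM factor. Its library held 21 counts in a total of 2779756, and replicate 2 of that week held 19 in 1156205.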

How the results depend on the processing

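The LP minus SP differences of Tshb and Cga in the MBH kept their sign under each alternative, from 6.57 to 7.67 for Tshb (the highest without replicate 5) and from 2.77 to 3.56 for Cga on the log2 scale. With the highest isoform in place of the sum, Upp2 fell to 3.41 and Eya3 reversed to -0.41 on the log2 scale, and Eya3 ran from -0.72 to 0.50 with 1 replicate number left out. Among the SP weeks of the MBH, where 1 member was called, 0 were called at an FDR of 0.05, with the filter on low counts, with DESeq2 or with the replicate block, 2 with edgeR's newer form, 3 with the highest isoform and 0 to 1 without a replicate. Between recovery and maintenance, where 0 were called, 1 was called with edgeR's newer form, 2 with the highest isoform and 0 to 1 without a replicate. In the pituitary gland and in the DMH over the 9 groups, where 1 member each was called, 0 were called at an FDR of 0.05, with the highest isoform or DESeq2, and 0 to 1 without a replicate, and 0 also with the filter (pituitary gland) or edgeR's newer form (DMH). The filter removed Nmu and Upp2 in the MBH, 3 members in the pituitary gland and all in the DMH and PVN, so it gave no value there. The calls over all symbols moved too. Among the SP weeks of the MBH they were 57 of 20156, and 94 with the highest isoform. They were 7 with the replicate block and 1 of 9221 with the filter. Between recovery and maintenance they were 2, 25, 3 and 0 in the same order. Over the 9 groups the highest isoform gave 32 in the pituitary gland and 32 in the DMH, against 2149 and 1008. For LP against SP in the MBH they were 164, and 8 of 9221 with the filter.

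With the highest isoform the LP minus SP shift of the log2 ratio was -4.05 for Upp2 to Tshb, against -1.27 with the sum, -1.61 for Upp2 to Cga, against 1.43, and -1.29 for Tshb to Cga in the pituitary gland, against -3.68. Differences near 0 changed sign. Cga in the pituitary gland, LP minus SP, was -0.096 with DESeq2's size factors, -0.097 with DESeq2, -0.0026 with the replicate block, -0.030 with the highest isoform and -0.12 to 0.080 without a replicate. Tshb there was -2.42 to 0.091 without a replicate for LP minus SP, and for recovery minus maintenance -0.014 with size factors, -0.012 with DESeq2, -0.13 with the block, -0.044 with the highest isoform and -0.18 to 0.23 without a replicate. In the DMH Eya3, LP minus SP, ran from -0.32 to 2.19 without a replicate, and in the PVN Tshb was 0.21 with the block, 0.19 with DESeq2 and -0.73 to 0.27 without a replicate. Correlations centred on each week were -0.035 for Tshb with Cga, -0.27 for Tshb with Eya3, -0.085 for Cga with Eya3 and -0.022 for Cga with Prl. Without the 2 farthest libraries Tshb with Cga was -0.012 and Cga with Eya3 -0.028, and without the 2 libraries highest in pars distalis hormones Tshb with Eya3 was -0.016, Cga with Prl -0.25 and Cga with Gh -0.0098. Over all other single-gene and correlation values, 58 lost a call, 10 gained one and the rest kept their direction and their side of the threshold. The cause of these changes was not tested.

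The labels do not say that a replicate number marks a shared batch, and not every same-numbered pair had a correlation of deviations over 0.1 (47 pairs did in the MBH), so the numbers were not taken to pair the hamsters. As a hint from the data, same-numbered libraries were slightly more alike: the median correlation was 0.044 against -0.007 for other pairs in the MBH and 0.070 against -0.016 in the pituitary gland, and of 54 libraries per tissue 28 (MBH), 43 (pituitary gland), 26 (DMH) and 28 (PVN) correlated best with their own number. The replicate block left Nmu among the SP weeks at an adjusted p of 0.292 and lowered the count of symbols called over the 9 groups of the MBH from 89 to 22, while it moved that count from 1008 to 227 for DMH libraries and from 3 to 75 for PVN libraries.

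Depth limits the rare members: Nmu and Upp2 had 80 and 190 summed counts in all MBH libraries, and the pituitary libraries could not show a gene of a few CPM.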
